A study of Mus musculus with 8 samples.

Results

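The Ugt2 and Ugt3 genes encode UDP-glycosyltransferases, and the 10 genes described here (Ugt2a3, Ugt2b1, Ugt2b5, Ugt2b34, Ugt2b35, Ugt2b36, Ugt2b37, Ugt2b38, Ugt3a1 and Ugt3a2) were taken by their symbols from a table of 15210 genes measured in mouse liver. All 10 were listed, and 9 of them were expressed highly enough to be tested among 12008 genes. The study compared the livers of 4 control mice with those of 4 mice given 4,4'-methylenebis(2-chloroaniline) (MOCA), a chlorinated aromatic diamine used to cure polyurethane. All 8 were female F1-TKm30 mice on the immunodeficient NOG background, and all carried the mutant clone 30 of the herpes simplex virus thymidine kinase (HSVtk) under the enhancer and promoter of mouse transthyretin, which is active in hepatocytes. The control mice received 0% and the treated mice 0.05% MOCA for 4 weeks, by a route that the labels do not give. Ages of 17 and 21 weeks are named without being tied to single mice. The control livers therefore carry the transgene as well, and no liver without it was compared.

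UDP-glycosyltransferases sit in the membrane of the endoplasmic reticulum and join a sugar to small fat-soluble molecules, which makes these easier to excrete in bile or urine. UGT2 enzymes take glucuronic acid from UDP-glucuronate and act on steroids, bile acids, phenols, drugs and, for some of them, aromatic amines. The UGT3A enzymes differ in their sugar: from work on the human enzymes, UGT3A1 uses UDP-N-acetylglucosamine and UGT3A2 uses UDP-glucose and UDP-xylose.

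The 8 Ugt2 members lie side by side on chromosome 5, between 86889767 and 87424203 of the mm10 build (534437 bases), in the order Ugt2b34, Ugt2b1, Ugt2b35, Ugt2b36, Ugt2b5, Ugt2b37, Ugt2a3 and Ugt2b38. GENCODE annotates 26 genes in that span, of which 8 are protein coding, all of them members, and 15 are pseudogenes. Ugt2b35 is read from the plus strand and the other Ugt2 members from the minus strand. Ugt3a1 (9276888 to 9315032) and Ugt3a2 (9335550 to 9370955) are neighbours on the plus strand of chromosome 15.

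The promoters are shown because nearly all of them hold 1 related stretch. In RefSeq's promoter table (build GRCm38.p6), 9 members had an entry, and 8 of these held GTTA, any 4 bases and TTAAC in a row, on either strand, upstream of the annotated start. Of all 32851 promoters in the table, 56 (0.17%) held this pattern. Its letters were chosen after these promoters had been read, so the counts describe the family and test nothing. Each line gives 60 bases, 5′ to 3′ on the gene's own strand, with the 13-base stretch in capitals; for Ugt2a3, whose promoter has no full match, the capitals mark the closest stretch, which has 8 of the 9 fixed letters. Ugt2b38 (chr5:87424232-87424291, minus strand) has the same 60 bases as Ugt2b37. RefSeq starts Ugt3a1 at 9279829, inside the gene as GENCODE bounds it, and distances for this gene are from that start.
Ugt2b5 (chr5:87140366-87140425, minus strand): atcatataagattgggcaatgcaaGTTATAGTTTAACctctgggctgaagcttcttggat
Ugt2b37 (chr5:87254831-87254890, minus strand): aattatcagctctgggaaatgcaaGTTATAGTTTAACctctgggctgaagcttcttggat
Ugt2b36 (chr5:87092584-87092643, minus strand): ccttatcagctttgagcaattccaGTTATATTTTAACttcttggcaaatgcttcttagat
Ugt2b35 (chr5:87000766-87000825, plus strand): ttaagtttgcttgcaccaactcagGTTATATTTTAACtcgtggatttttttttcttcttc
Ugt2b34 (chr5:86906975-86907034, minus strand): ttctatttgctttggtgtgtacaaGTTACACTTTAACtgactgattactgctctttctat
Ugt2b1 (chr5:86926557-86926616, minus strand): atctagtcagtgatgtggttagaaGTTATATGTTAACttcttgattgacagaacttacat
Ugt2a3 (chr5:87337214-87337273, minus strand): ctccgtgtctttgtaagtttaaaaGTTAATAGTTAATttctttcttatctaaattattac
Ugt3a1 (chr15:9279675-9279734, plus strand): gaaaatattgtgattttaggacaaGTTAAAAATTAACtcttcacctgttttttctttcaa

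The matching stretch began 61 to 89 bases before the start in the Ugt2b genes and 130 bases before it in Ugt3a1. A stricter palindrome, GTTAAT and ATTAAC with any base between them, was in 0 of the 9 promoters and in 3 of all promoters. AGGTCA, a unit of many nuclear receptor sites and searched on both strands like the patterns that follow, was in the promoters of Ugt2b35, Ugt2b36, Ugt2b5, Ugt2b37 and Ugt2b38, 5 of 9, against 14% of all promoters. The promoters of Ugt2b5, Ugt2b37 and Ugt2b38 were 88.1% to 95.3% identical to each other, so their matches are not independent and this count tests nothing either. TGACNNNGC, the core bound by NRF2, was in 0 of 9 against 10.2% of all promoters, and GCGTG, the core bound by the aryl hydrocarbon receptor, in 0 of 9 against 28.2%. A missing match says only that these letters are not in this window.

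Values are CPM (reads normalised to library size) scaled by trimmed-mean (TMM) factors, called scaled CPM here, and 1 read is worth 0.0581 to 0.0648 of it. The 8 libraries held 15024945 to 17101844 reads, and 8 of the members had between 2081 and 15903 reads in each library. Ugt2b37 had 20 to 160 reads and Ugt2b38 had 0 to 4. Differences were tested with limma on log2(scaled CPM + 1), with p-values adjusted by Benjamini-Hochberg over all 12008 genes and a call made under 0.05. The 8 samples are labelled as separate mice, and the p-values measure the spread between these mice.

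No member passed the test: limma called 0 of 9, against 0.666% of all tested genes (0.4% higher and 0.266% lower in treated livers). At an unadjusted p under 0.05 there were 4 (Ugt2a3, Ugt3a2, Ugt2b35 and Ugt2b34), where 17.5% of all tested genes had such a p. The count test edgeR called 0 of 9 members (0.683% of all genes), and DESeq2 called 1, Ugt2a3 (3.61% of the genes it gave an adjusted p). The fold changes were positive for the 6 tested Ugt2b genes and negative for Ugt2a3 and both Ugt3a genes; of all tested genes, 51.1% had a positive one. The median log2 fold change of the 9 tested members was 0.185, beside 0.00514 over all tested genes. The groups were apart in 1 of 9 members, Ugt2b34, whose 4 treated mice were all above the 4 controls. That holds for 5.5% of all tested genes in this direction, for 4.96% in the other, and for 10.5% in either. In whole liver, a lower value from fewer cells of a type and one from less RNA per cell cannot be told apart.

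**Figure D1:**
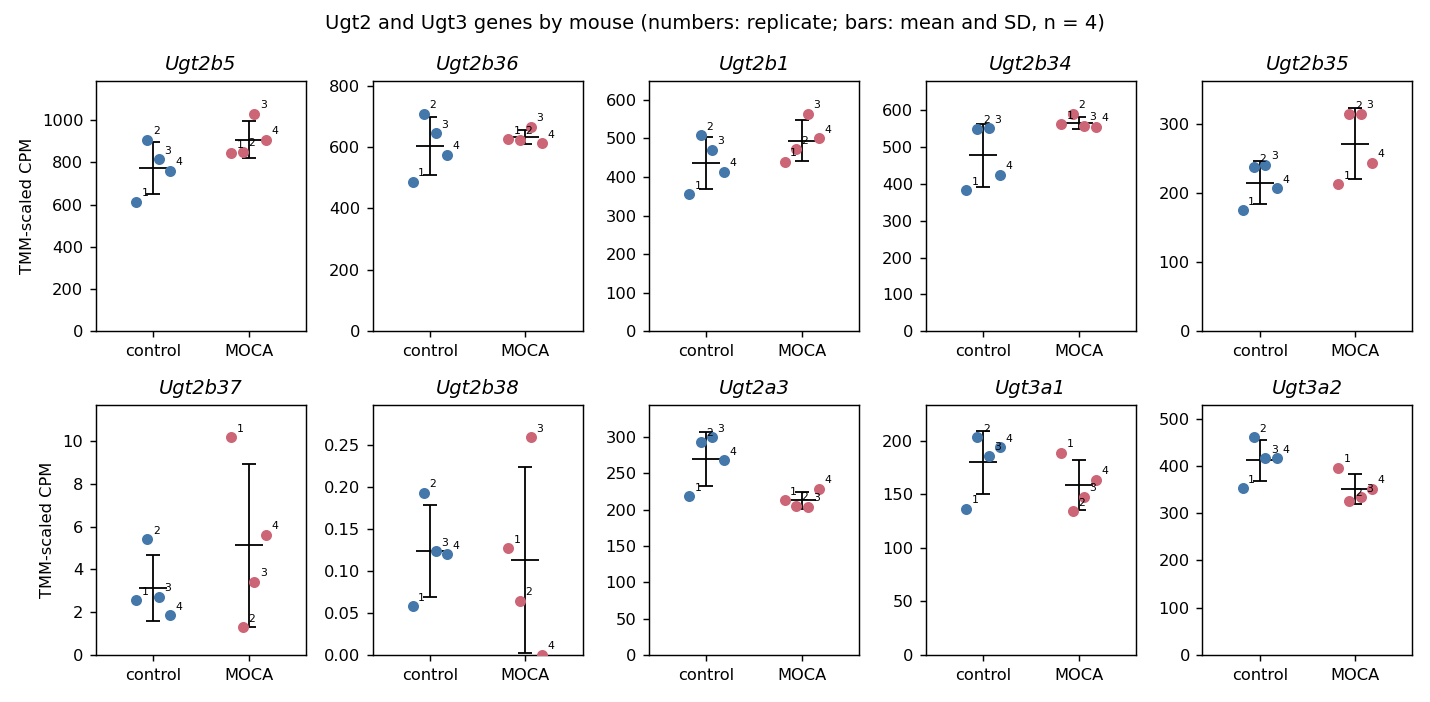
Scaled CPM of each of the 10 members in each mouse (points), with the group mean and SD (bars), for 4 control and 4 MOCA-treated livers. Ugt2b34 is the single member whose treated mice all lie above the controls (556 to 591 against 382 to 552), and the first control mouse is the lowest control in most panels.

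Ugt2b5 and Ugt2b36 had the highest levels of the family per length. In scaled CPM per kilobase of the longest coding transcript, the control livers held 417 ± 66.4 (SD, n = 4) of it and 320 ± 50.5 of Ugt2b36, and Ugt2b36 was below Ugt2b5 in all 8 mice. This order rests on the transcript taken: per kilobase of the mean coding transcript Ugt2b36 was at 521 ± 82.2 in the controls, above Ugt2b5 in all 8 mice. On that measure Ugt3a1 was at 138 ± 22.8 and Ugt2b34 at 130 ± 23.5 in the controls, so the place of Ugt2b34 beside Ugt2a3 also rests on it. Per kilobase of the longest coding transcript, Ugt3a2 followed at 177 ± 19.0 and Ugt2b1 at 170 ± 26.1, a gap smaller than either SD. Ugt2a3 (127 ± 17.5) and Ugt2b34 (111 ± 20.1) likewise lay within their spread of each other. Ugt3a1 (80.1 ± 13.2) was above Ugt2b35 (64.1 ± 9.20) in all 4 controls. Ugt2b37 was far lower at 1.66 per kilobase, and Ugt2b38 was at 0.0654, the level of a few reads. In treated livers Ugt2b1 (192 ± 20.5) lay above Ugt3a2 (151 ± 13.6), and Ugt2b34 (131 ± 3.78) above Ugt2a3 (100 ± 5.36). Together the members took 0.276% to 0.366% of all reads in control and 0.344% to 0.385% in treated livers.

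Ugt2b5, an abundant glucuronosyltransferase of mouse liver, measured 613, 908, 815 and 760 scaled CPM in control replicates 1 to 4 and 844, 850, 1030 and 908 in MOCA replicates 1 to 4. The treated values were higher in the mean but the groups overlapped, since control replicate 2 was above MOCA replicates 1 and 2. The means were 774 ± 123 and 908 ± 86.6 (SD, n = 4 each), a log2 fold change of 0.24 (SE 0.12, 95% interval -0.02 to 0.50), with an adjusted p of 0.324 in limma.

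Ugt2b34 measured 382, 550, 552 and 426 scaled CPM in the controls and 562, 591, 558 and 556 in the treated mice. The treated mice lay close together and above every control, though only just above control replicates 2 and 3. The means were 477 ± 86.6 and 567 ± 16.3 (SD, n = 4 each), and the log2 fold change of 0.26 (SE 0.12) had an unadjusted p of 0.0419 and an adjusted p of 0.267 in limma.

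Ugt2b35 is the member read from the opposite strand of the cluster. It measured 175, 237, 242 and 207 scaled CPM in the controls and 213, 315, 315 and 244 in the treated mice. MOCA replicates 2 and 3 were well above every control, while MOCA replicate 1 lay within the control range. Its log2 fold change of 0.33 (SE 0.14, 95% interval 0.02 to 0.63) had an unadjusted p of 0.0396 and an adjusted p of 0.262 in limma.

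Ugt2b1 measured 355, 508, 471 and 414 scaled CPM in the controls and 439, 473, 564 and 500 in the treated mice. The groups overlapped, and the log2 fold change of 0.18 (SE 0.12) had an adjusted p of 0.442 in limma. Ugt2b36 measured 486, 709, 644 and 576 in the controls and 626, 624, 667 and 613 in the treated mice. The 4 treated mice fell inside the control range, and the difference was 0.08 on the log2 scale (95% interval -0.15 to 0.31, adjusted p of 0.75 in limma).

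Ugt2b37 and Ugt2b38 are the low members of the subfamily. Ugt2b37 measured 2.56, 5.41, 2.72 and 1.86 scaled CPM in the controls and 10.2, 1.29, 3.43 and 5.62 in the treated mice, so that the treated group held both the highest and the lowest value. Its log2 fold change of 0.41 (SE 0.40) had an adjusted p of 0.644 in limma, and it was 0.04 without MOCA replicate 1 and 0.81 without MOCA replicate 2. Ugt2b38 had 1, 3, 2 and 2 reads in the controls and 2, 1, 4 and 0 in the treated mice, too few to test; a count of 0 in MOCA replicate 4 allows up to 3 reads, or 0.183 scaled CPM, for counting error only.

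Ugt2a3, whose human counterpart conjugates bile acids, had the smallest p of the family. It measured 218, 293, 299 and 268 scaled CPM in the controls and 213, 205, 204 and 229 in the treated mice. The treated mice lay below control replicates 2, 3 and 4 and around control replicate 1, so the groups overlapped by that mouse alone. The means were 270 ± 37.0 and 213 ± 11.4 (SD, n = 4 each), with a log2 fold change of -0.33 (SE 0.10, 95% interval -0.55 to -0.12), an unadjusted p of 0.00611 and an adjusted p of 0.135 in limma. The adjusted p was 0.123 in edgeR and 0.0418 in DESeq2. Without control replicate 1 the log2 fold change was -0.43 and limma's adjusted p 0.0491, a call.

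Both Ugt3a genes were lower in the mean in treated livers. Ugt3a2 measured 353, 460, 416 and 416 scaled CPM in the controls and 396, 325, 333 and 352 in the treated mice. MOCA replicates 2, 3 and 4 were below the lowest control, and MOCA replicate 1 was inside the control range. The log2 fold change was -0.22 (SE 0.09, 95% interval -0.43 to -0.02), with an unadjusted p of 0.0364 and an adjusted p of 0.254 in limma. Ugt3a1 measured 137, 203, 186 and 194 in the controls and 189, 134, 148 and 163 in the treated mice. Its groups overlapped widely, and its log2 fold change of -0.18 (SE 0.13) had an adjusted p of 0.527 in limma; it was -0.30 without control replicate 1 and -0.10 without MOCA replicate 2. The ratio of Ugt3a1 to Ugt3a2 per kilobase stayed between 0.402 and 0.483 in control and between 0.429 and 0.495 in treated livers.

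**Figure D2:**
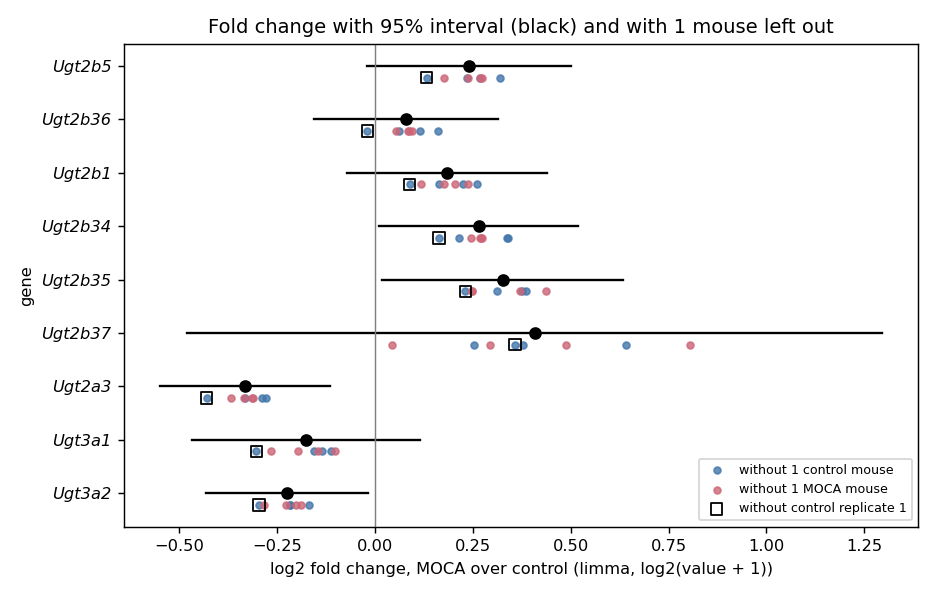
Log2 fold change (MOCA against control) of the 9 tested members on the log2(scaled CPM + 1) scale, with 95% intervals from limma (black) and the values with 1 mouse left out (coloured points, squares without control replicate 1). The Ugt2b genes lie above 0 (0.08 to 0.41) when all mice are used, and Ugt2a3, Ugt3a1 and Ugt3a2 lie below it (-0.33 to -0.18).

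Control replicate 1 stood apart from the other controls across the family. It was the lowest control in 8 of the 9 tested members, against 26.2% of all tested genes, and in 1 of 8 tested UDP-glycosyltransferase genes outside the family. Low values in this mouse were not confined to the family. Of the gene lists read below, it had the lowest control sum for the other UDP-glycosyltransferases (1493 scaled CPM), UDP-glucuronate supply (953) and the transporters (3235). The first of these sums was lowest through Ugt1a9, named after its values were seen, at 484 in this mouse against 645 to 753 in the other controls. Control replicate 1 did not have the lowest sum for the other sugar donors, the regulators or the genes higher in 1 sex. In the 8 abundant members its value was between 70.4% (Ugt3a1) and 81.9% (Ugt3a2) of the mean of the other controls. Leaving it out lowered the log2 fold change of Ugt2b5 from 0.24 to 0.13, of Ugt2b34 from 0.26 to 0.16 and of Ugt2b1 from 0.18 to 0.09. That of Ugt2b36 went from 0.08 to -0.02. The negative ones grew in size, from -0.33 to -0.43 for Ugt2a3, from -0.18 to -0.30 for Ugt3a1 and from -0.22 to -0.30 for Ugt3a2. Its summed level of 10 hepatocyte markers was 121037 scaled CPM, inside the range of the controls, and that of 6 erythroid markers, 252, was the lowest of the 8 mice.

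**Figure D3:**
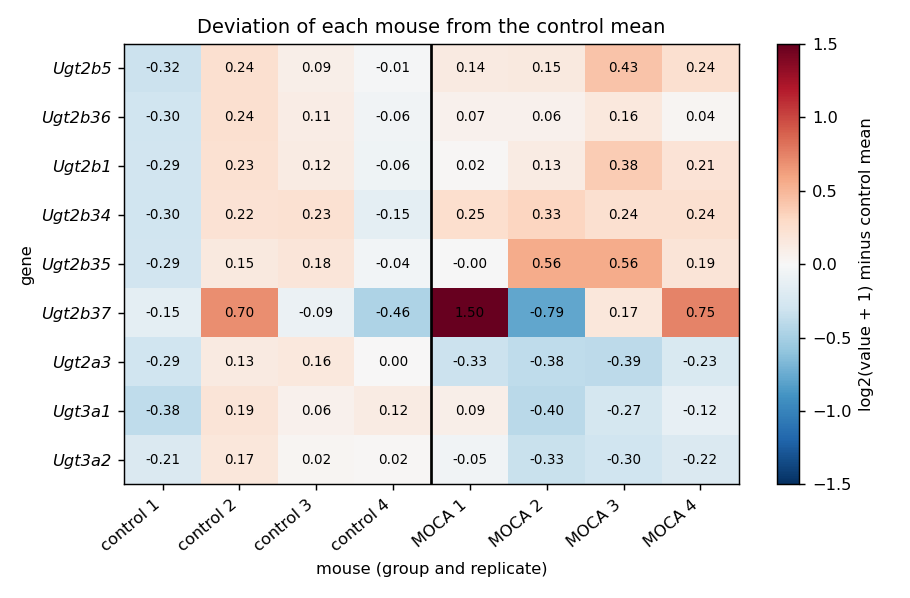
Difference of log2(scaled CPM + 1) in each mouse (columns) from the control mean of each tested member (rows), as a colour and a printed value. Control replicate 1 lies below 0 for the 9 members, and in MOCA replicates 2, 3 and 4 the 5 abundant Ugt2b genes lie above Ugt2a3 and both Ugt3a genes.

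Taken as a sum, the Ugt2b genes made up a larger part of the family's transcripts in the treated mice. This grouping follows the signs of the fold changes given above, so its separation adds no further support to them. The Ugt2b share of the summed level per kilobase was 73.4%, 74.7%, 74.3% and 72.6% in the controls and 76.5%, 80.2%, 81.6% and 78.5% in the treated mice. The groups did not overlap (73.7% ± 0.965 against 79.2% ± 2.20, SD, n = 4 each), and control replicate 1 did not stand apart on this measure. Gene by gene, only the share of Ugt2b5 rose without overlap, being 27.9% to 28.9% in the controls and 30.1% to 33.5% in the treated mice. The shares of Ugt2a3 (8.20% to 9.02% against 5.81% to 6.99%) and Ugt3a2 (11.4% to 12.8% against 8.63% to 11.3%) fell without overlap. Parts of a whole cannot all rise, so this rise and these falls are not independent. Such shares were not taken for other sets of genes, so how often they part like this is not known. The share of Ugt2b36 was 21.8% ± 0.355 in control and 21.6% ± 0.498 in treated livers (SD, n = 4 each), and the shares of the other Ugt2b genes overlapped too. The ratio of the Ugt2b to the Ugt3a sum was 4.09, 4.38, 4.45 and 3.91 in the controls and 4.55, 6.04, 6.47 and 5.42 in the treated mice, with MOCA replicate 1 the nearest to the controls. Sums over the members are given as descriptions, with no test.

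Each member was also divided by Ugt2b5 in the same mouse, a measure chosen after the values had been seen. Ugt2a3 per kilobase was 0.312, 0.284, 0.322 and 0.309 of Ugt2b5 in the controls and 0.222, 0.212, 0.174 and 0.221 in the treated mice. The groups were far apart. Ugt3a2 went from 0.404 to 0.459 of Ugt2b5 in the controls to 0.258 to 0.374 in the treated mice, and Ugt2b36 from 0.745 to 0.780 to 0.637 to 0.731. These were 3 of 8 members whose ratio was lower without overlap, where 11.5% of all tested genes divided by Ugt2b5 were lower without overlap. They include a Ugt2b gene, so the ratios do not divide by subfamily. The other 5, Ugt3a1 among them, overlapped, and none was higher without overlap (0.192% of all tested genes were, and 11.7% were apart in either direction). The shared denominator makes such ratios move together, and they show unequal change, not which gene changed.

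**Figure D4:**
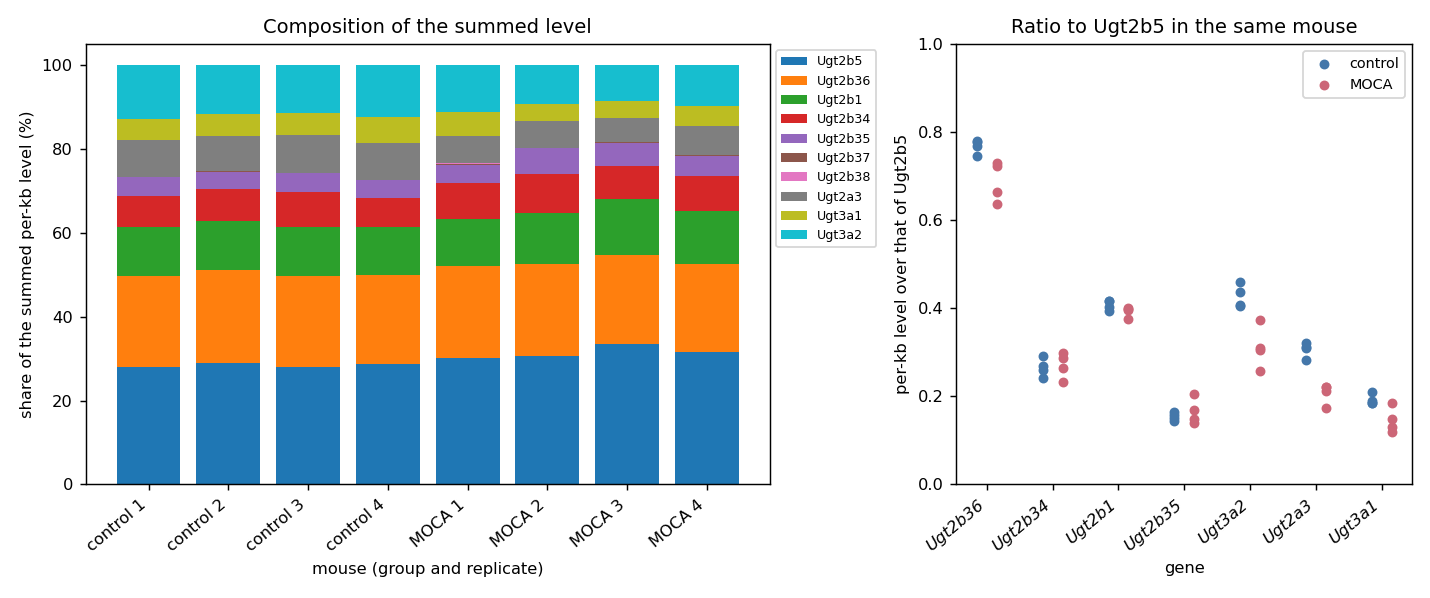
Share of each member in the summed level per kilobase of the family, in percent, for each mouse (stacked bars), and the ratio of each of 7 abundant members to Ugt2b5 in the same mouse (points). The Ugt2b part is 72.6% to 74.7% in the controls and 76.5% to 81.6% in the treated mice, and the Ugt2a3 part is 8.20% to 9.02% against 5.81% to 6.99%; the ratio groups are apart for Ugt2b36, Ugt3a2 and Ugt2a3.

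Several of these transcripts are close in sequence, which limits how their reads can be told apart. Ugt2b5 and Ugt2b38 were 95.7% identical along their aligned transcripts, Ugt2b5 and Ugt2b37 were 93.4%, and Ugt3a1 and Ugt3a2 were 92.0%. The Ugt2 and Ugt3 transcripts were 58.6% to 62.0% identical. Of the 50-base stretches of Ugt2b5, 41.7% occurred unchanged in the transcript of another gene, as did 37.4% of those of Ugt2b38, 18.3% of Ugt2b37, 9.38% of Ugt3a1 and 9.39% of Ugt3a2. For Ugt2a3 the share was 4.55%, and for Ugt2b1, Ugt2b34, Ugt2b35 and Ugt2b36 it was at most 1.45%. No label says how the authors' counting divided such shared reads, so the levels of Ugt2b5, Ugt2b37 and Ugt2b38 are uncertain to that extent.

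The 5 abundant Ugt2b genes varied together over the 8 mice, as did the Ugt3a pair, which is given as a description, since the libraries share group and depth differences. Among these Ugt2b genes, Pearson's r between log2 values was 0.668 to 0.977 over 10 pairs, and Spearman's rho was 0.357 to 0.952. Both were highest for Ugt2b5 with Ugt2b1, whose r was 0.900 without the 2 mice farthest from the median. The other Ugt2b pairs were not read without such mice. Ranks went together less for some pairs, with a rho of 0.357 for Ugt2b34 with Ugt2b36 (r of 0.846) and 0.452 for Ugt2b1 with Ugt2b34 (r of 0.823). For Ugt3a1 with Ugt3a2 r was 0.926 (rho 0.857, and r of 0.964 without the 2 farthest mice). Ugt2b37 did not follow the abundant Ugt2b genes (r of -0.212 to 0.323). Between an abundant Ugt2b and a Ugt3a gene r was -0.432 to 0.456, and -0.071 to 0.691 for the deviations from the group means. Between Ugt2a3 and an abundant Ugt2b gene it was -0.269 to 0.292, and 0.390 to 0.835 for those deviations. Among the abundant Ugt2b genes themselves the deviations gave 0.641 to 0.977. These ranges overlap, so varying together within the groups was not particular to the Ugt2b genes. Of all tested genes, the most like Ugt2b5 over the 8 mice were Ugt2b1 (0.977), Nelfe (0.927), Mup20 (0.923), Nrd1 (0.919) and Gnai3 (0.917). Without the 2 mice farthest from the median, r was 0.614 for Nelfe, 0.29 for Mup20, 0.396 for Nrd1 and 0.796 for Gnai3, so the likeness of Mup20 and Nrd1 rests on those mice. The most like Ugt2a3 were Aplp2 (0.966), Ahcy (0.957), Ezh2 (0.954), Wdr5 (0.952) and Ces1c (0.951), with r of 0.853 to 0.911 without the 2 farthest mice.

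The other UDP-glycosyltransferases did not pass the test. Of 12 on the list, 10 were in the table and 8 were tested; 0 were called in limma, edgeR or DESeq2, none had an unadjusted p under 0.05, 5 fold changes were positive and 3 negative, and their median log2 fold change was 0.0184. Ugt1a5 measured 63.0 ± 15.6 scaled CPM in control and 84.9 ± 34.8 in treated livers (SD, n = 4 each; limma adjusted p 0.491).

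Genes listed for the supply of UDP-glucuronate, the sugar donor of the Ugt2 enzymes, had mostly positive fold changes without passing the test. Not all of them make or move this donor: Slc35b1 and Entpd5, for example, act on other nucleotides. Of the 8 genes on this list, limma called 0, 7 had a positive and 1 a negative fold change, and the median was 0.123. Ugdh, which oxidises UDP-glucose to UDP-glucuronate, measured 87.3, 125, 113 and 95.8 scaled CPM in the controls and 119, 160, 146 and 158 in the treated mice. The groups overlapped through MOCA replicate 1 and control replicate 2. Its log2 fold change of 0.47 (SE 0.12) had an adjusted p of 0.104 in limma and 0.0199 in DESeq2. Ugp2, which makes UDP-glucose, measured 249 ± 31.8 and 295 ± 28.7 (SD, n = 4 each; limma adjusted p 0.244). Slc35b1, a nucleotide carrier of the endoplasmic reticulum, measured 19.1 ± 2.60 and 25.8 ± 4.68 (SD, n = 4 each; limma adjusted p 0.160).

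For UDP-N-acetylglucosamine and the other sugar donors, 1 of 7 tested genes rose, 6 did not pass the test, and the median log2 fold change was 0.272. The gene that rose was Gnpnat1, the acetyltransferase of the hexosamine pathway. It measured 52.5, 57.5, 56.1 and 55.2 scaled CPM in the controls and 72.2, 75.4, 73.0 and 73.1 in the treated mice. The groups were far apart and each was tight (log2 fold change 0.40, SE 0.06, limma adjusted p 0.0161). Without control replicate 4 or MOCA replicate 2 its adjusted p was 0.0532 and 0.0586. Gfpt1, the enzyme that opens that pathway, measured 40.9 ± 2.80 and 57.0 ± 14.1 (SD, n = 4 each; limma adjusted p 0.154).

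Regulators and transporters gave 1 call. Of 18 transcription factors and partners known to act on UGT genes, 0 were called in limma, edgeR or DESeq2, with 3 at an unadjusted p under 0.05, 9 positive and 9 negative fold changes and a median of 0.0134. Nr1i3, which encodes the receptor CAR and was chosen after its values were seen, measured 114 ± 7.28 scaled CPM in control and 111 ± 21.1 in treated livers (SD, n = 4 each; limma adjusted p 0.847). Of 8 transporters of glucuronides and other conjugates, Slco1a4 fell and 7 did not pass the test. Slco1a4, an uptake carrier of organic anions, measured 192, 233, 242 and 207 in the controls and 152, 168, 148 and 128 in the treated mice, which lay below every control (log2 fold change -0.55, limma adjusted p 0.0328). That call was kept without control replicate 1 and without MOCA replicate 2; without any of the other 6 mice its adjusted p was 0.0566 to 0.113. Abcc4, an export pump of the basal membrane, measured 15.4 ± 1.54 and 21.9 ± 3.76 (SD, n = 4 each), with an adjusted p of 0.0986 in limma and 0.0176 in DESeq2.

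Several UGT genes differ between male and female liver, so genes known to be higher in 1 sex were read beside them. Of 9 tested genes known to be higher in male liver, limma called 0, with 8 positive and 1 negative fold changes and a median of 0.211. Of 16 known to be higher in female liver, limma called 0, with 10 positive and 6 negative and a median of 0.311. Mup20, a urinary protein higher in males, measured 16.6, 27.6, 28.9 and 27.1 scaled CPM in the controls and 31.8, 33.3, 45.4 and 30.5 in the treated mice. The treated mice were above every control, and the log2 fold change of 0.49 had an adjusted p of 0.181 in limma; without control replicate 1 it was 0.31. Cyp2a4, a steroid hydroxylase higher in females, measured 218, 471, 263 and 247 in the controls and 950, 325, 436 and 765 in the treated mice. Control replicate 2 was above MOCA replicates 2 and 3, and the log2 fold change of 0.98 (SE 0.32) had an adjusted p of 0.165 in limma. DESeq2 called 1 gene of the female list, Cyp3a41b (adjusted p 0.0495 in DESeq2, 0.324 in limma), which measured 173 in MOCA replicate 1 and 0.580 to 39.7 in the other treated mice.

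The tissue label was read against cell markers. The 10 hepatocyte markers were all present, at a summed level of 118036 to 138439 scaled CPM in control and 102728 to 116720 in treated livers. All 10 had negative fold changes (median -0.152), limma called none and DESeq2 called 3, and 2 had an unadjusted p under 0.05 in limma. The sum of 6 erythroid markers was 252 to 443 in control and 472 to 525 in treated livers, also without overlap; 4 of 4 tested had positive fold changes and an unadjusted p under 0.05 in limma, which called none after adjustment, while DESeq2 called 3. Kupffer cell markers summed to 285 to 343 and 290 to 394, endothelial markers to 391 to 466 and 384 to 397, stellate cell markers to 462 to 512 and 381 to 479, and cholangiocyte markers to 41.2 to 49.8 and 36.5 to 55.5. Of 7 endothelial markers 3, and of 7 stellate cell markers 1, had an unadjusted p under 0.05 in limma, all lower in treated livers. No Kupffer cell or cholangiocyte marker had such a p, where 17.5% of all tested genes did. One endothelial and 1 stellate cell marker were lower without overlap, as were 4.96% of all tested genes. In these lists limma called none, and DESeq2 called 1 stellate cell marker. Kidney, where several of these enzymes are also made, had 1 of 6 markers in the table, at a level of 0.639 to 1.67 and 0.454 to 0.855. Intestine markers (4 of 6 in the table) summed to 45.1 to 54.5 and 47.3 to 55.7, and pancreas markers (3 of 7) to 6.74 to 12.2 and 5.16 to 9.14. Of 7 lymphocyte markers, 0 were in the table. The part of these differences in the members' values was not tested.

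**Figure D5:**
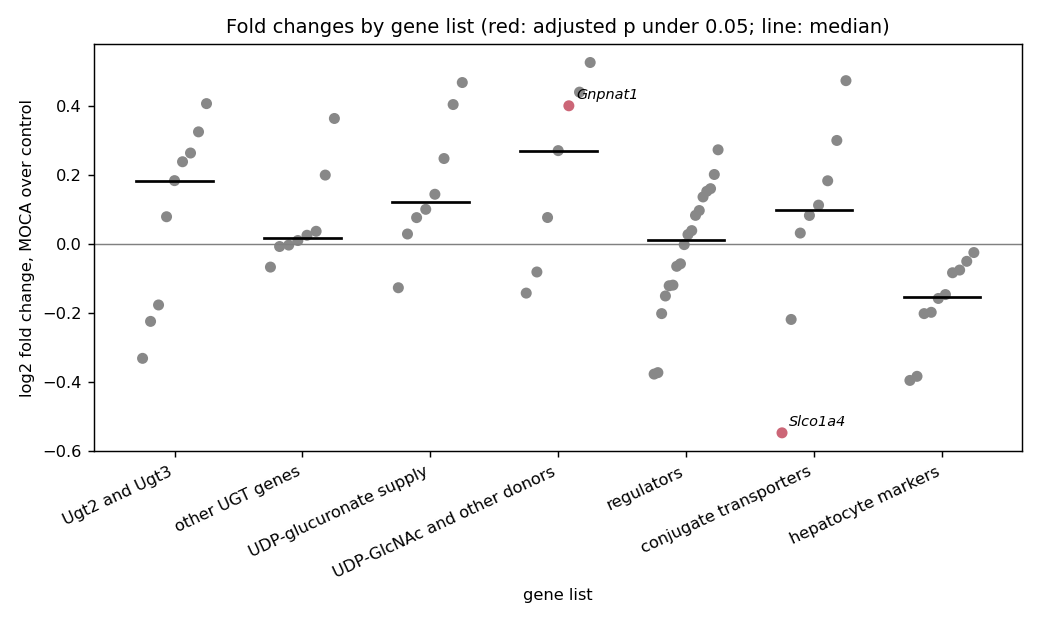
Log2 fold change (MOCA against control) of every tested gene of the members, of 5 related gene lists and of the hepatocyte markers (points, red where limma's adjusted p is under 0.05), with each median as a line. Gnpnat1 and Slco1a4 are the red points, the members' median is 0.185, and the hepatocyte markers all lie below 0 (median -0.152).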

How the data were processed

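Per the labels' protocols, liver RNA came off RNeasy columns, and 200 ng was depleted of ribosomal RNA for strand-keeping MGIEasy libraries. The submitters' processing notes list Trimmomatic 0.38, Bowtie2, RSEM, edgeR and the build mm10 without roles; no source here gives the strand setting used in counting. The treatment protocol names C57BL mice, whereas strain and design text name F1-TKm30 on NOG, which is used.

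The authors deposited 1 scaled signal value per gene and mouse. In every column 100% of values were multiples of a fixed step (tolerance 0.001). Each step equals the CPM of 1 read scaled by TMM factors recomputed with edgeR. The values are thus TMM-scaled CPM, and whole reads could be recovered. Replicates of a group all differed by more than sampling noise (lowest chi-square per degree of freedom 13.7).

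limma 3.58.1 in R 4.3.3 (lmFit, eBayes with trend, no covariate) was fitted to log2(value + 1) for the 12008 genes reaching 1 in at least 4 libraries; 3202 did not. A fold change on this scale understates low genes. The recovered reads were also tested with edgeR 4.0.16, by quasi-likelihood, and with DESeq2 1.42.0. Levels per kilobase use the longest coding transcript in GENCODE M21, and identities come from alignments in Biopython 1.88. The members and gene lists were chosen with earlier results of these data known. Other genes named are, per list, up to 4 with the smallest unadjusted p, and the 5 most correlated with Ugt2b5 and with Ugt2a3; exceptions are stated, and some listed genes are not reported here by name.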

Additional observations from a re-analysis of the deposited data

Results flagged for a closer look

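Among 78 groups of 4 mice examined (members and other named genes), 5 had a mouse far from the rest by Dixon's 95% limit; chance gives about 1 in 20. Ugt2b34 was 590.962 scaled CPM in MOCA replicate 2, against 556 to 562 in the other treated mice. Entpd5, which hydrolyses UDP in the endoplasmic reticulum, was 366.113 in MOCA replicate 4, against 331 to 333. Ugt1a6b was 171.908 in MOCA replicate 4, against 201 to 206. Arnt, the partner of the aryl hydrocarbon receptor, was 38.1137 in control replicate 1, against 34.9 to 35.0 in the other controls. Mup20 was 16.5586 in control replicate 1, against 27.1 to 28.9.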

How the results depend on the processing

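limma called 0 members; DESeq2 on the recovered reads called 1, and the fits leaving out 1 mouse called 0 to 1 (1 without control replicate 1), in both cases Ugt2a3. Of the 73 tested genes on the 7 lists of related UGT genes, sugar donors, regulators, transporters and sex differences, limma called 2; eBayes without trend called 1, DESeq2 5 and the fits leaving out 1 mouse 0 to 2. Of 197 fold changes of members under the alternatives, 194 kept their direction and their side of the threshold, 2 passed it (Ugt2a3, above) and 1 reversed: Ugt2b36, -0.019 without control replicate 1 (range over left-out mice -0.019 to 0.16). Ugt1a2 reversed to 0.0067 with array weights and ran from -0.18 to 0.048 over left-out mice; Ugt1a6b ran from -0.010 to 0.10. Same-numbered mice did not deviate together (correlation -0.0735 to 0.036), and 0 of 8 libraries correlated best with their own number. No pairing by number was seen in these values, which cannot show that none was made. With the replicate block 0 members and 0 genes of these 7 lists were called, and 30 of all genes rather than 80. Over all genes, the 80 calls (60% higher) became 169 with columns scaled to equal sums (77.5% higher), 96 by upper quartile (46.9% higher), 425 with DESeq2 and 29 to 77 over left-out mice. The causes were not tested. Depth limits only Ugt2b37 and Ugt2b38 among the members.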
